A study of Mus musculus with 11 samples.

Results

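Genes that set vessel tone and respond to blood flow were examined in endothelial cells (ECs) of bone marrow. They were 10 of the 27179 rows of the gene count table, found by matching each row's Entrez gene ID to its mouse symbol. They comprise the Krüppel-like factors *Klf2*, *Klf4* and *Klf6*, the nitric oxide synthase *Nos3*, the endothelin genes *Edn1*, *Ednrb* and *Ece1*, the angiotensin-converting enzyme *Ace*, the mechanosensitive channel *Piezo1* and the sphingosine 1-phosphate receptor *S1pr1*. The study compared ECs sorted as CD31hi EMCNhi, a gate that also marks the capillaries called type H, across marrow with and without metastasis. The gate alone does not show that the ECs of metastatic marrow are type H. Young adult BALB/c mice were burdened with 4T1.2 cells, a BALB/c mammary carcinoma line expressing red fluorescent protein (RFP) that spreads from the mammary fat pad to bone. Their bones were dissected by RFP signal into tumour-infiltrated marrow (met, 3 libraries) and adjacent tumour-free marrow (non-met, 6 libraries), and age-matched BALB/c mice without tumour gave the control group (2 libraries). All mice were of the BALB/c strain, and the labels give no engineered allele and no drug for any group. Each library came from a pool of mice and a small number of sorted cells, and the 11 libraries trace to 6 mouse pools. The 3 met libraries shared their mice with 4 of the non-met libraries, and 2 pools gave 2 non-met libraries each, so P values measure the spread between these libraries rather than between independent animals.

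Blood flowing over the vessel wall pulls on ECs, and steady laminar flow drives a kinase cascade that ends in MEF2 factors and raises KLF2 and KLF4. These factors bind CACCC and GC-rich elements, favour expression of endothelial nitric oxide synthase and restrain endothelin-1. Nitric oxide relaxes the smooth muscle around a vessel, endothelin-1 and angiotensin II contract it, and endothelin acting on the EDNRB receptor of ECs releases nitric oxide and clears the peptide. In healthy bone the type H capillaries that carry these markers lie near the growth plate and are fed by arterioles.

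By RefSeq coordinates (GRCm38.p6, equal to mm10) the Krüppel-like factors lie apart, *Klf2* at chr8:72319062-72321654 (plus strand), *Klf4* at chr4:55527137-55532475 (minus strand) and *Klf6* at chr13:5861489-5870393 (plus strand). The endothelin genes lie on 3 chromosomes, *Edn1* at chr13:42301476-42307990 (plus strand), *Ednrb* at chr14:103814615-103844508 (minus strand) and *Ece1* at chr4:137862237-137965229 (plus strand). The others are *Nos3* at chr5:24364816-24384474 (plus strand), *Ace* at chr11:105967948-105989964 (plus strand), *Piezo1* at chr8:122481698-122551329 (minus strand) and *S1pr1* at chr3:115710433-115715055 (minus strand). The counts of a gene cover its exons. *Klf2*, *Klf4*, *Klf6*, *Ednrb* and *S1pr1* overlap no other annotated gene.

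Promoter sequence was matched by symbol in the RefSeq promoter table of GRCm38.p6 for 8 of the 10 genes, with 12 start sites between them. *Nos3* and *S1pr1* were not matched. The 250 bases before a start site are shown for the flow-responsive factors *Klf2* and *Klf4* and for the endothelin ligand and receptor genes, read 5′ to 3′ on the gene's strand. Capitals mark the KLF element CACCC, the GC box GGGCGG and the MEF2 consensus, each searched on both strands.
Klf2: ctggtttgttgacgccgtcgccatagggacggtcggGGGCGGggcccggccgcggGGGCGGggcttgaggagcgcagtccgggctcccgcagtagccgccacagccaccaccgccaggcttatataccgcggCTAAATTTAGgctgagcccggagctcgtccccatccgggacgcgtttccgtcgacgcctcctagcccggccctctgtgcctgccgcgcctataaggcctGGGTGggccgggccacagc
Klf4: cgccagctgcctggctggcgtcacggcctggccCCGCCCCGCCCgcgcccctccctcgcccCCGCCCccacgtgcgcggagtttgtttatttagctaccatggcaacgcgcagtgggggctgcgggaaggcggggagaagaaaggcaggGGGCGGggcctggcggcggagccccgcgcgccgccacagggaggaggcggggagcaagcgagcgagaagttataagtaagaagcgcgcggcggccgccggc
Edn1: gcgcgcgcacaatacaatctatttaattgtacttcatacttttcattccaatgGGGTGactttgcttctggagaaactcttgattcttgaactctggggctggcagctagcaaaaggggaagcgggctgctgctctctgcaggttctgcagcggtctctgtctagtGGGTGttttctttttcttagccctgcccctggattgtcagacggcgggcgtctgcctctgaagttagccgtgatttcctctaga
Ednrb: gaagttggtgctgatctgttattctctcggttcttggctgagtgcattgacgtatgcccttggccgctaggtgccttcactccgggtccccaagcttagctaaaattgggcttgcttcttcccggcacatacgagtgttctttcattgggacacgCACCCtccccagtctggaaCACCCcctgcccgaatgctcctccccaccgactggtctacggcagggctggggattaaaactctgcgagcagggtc
The *Klf2* window, chr8:72318812-72319061 (plus strand), held a MEF2 consensus starting 118 bases before the start site, 2 GC boxes and a KLF element 19 bases before it; its last bases fall in an exon of a GENCODE model that starts slightly upstream. The *Klf4* window, chr4:55532476-55532725 (minus strand), held 4 GC boxes and was 74.0% G and C, against a median of 52.4% over all 32851 promoter windows of the same length. The *Edn1* window, chr13:42301226-42301475 (plus strand), held 2 KLF elements and was 50.4% G and C. The *Ednrb* window, chr14:103843702-103843951 (minus strand), held 2 KLF elements at 95 and 76 bases before its start site. It lies before the shorter gene models and inside the first intron of a longer one. A KLF element was found in 9 of the 12 windows (none in those of *Klf4* and *Klf6*), where 52.0% of all windows held one. A GC box was found in 7 of the 12 (none in those of *Edn1* and *Ednrb*), where 32.7% of all windows held one. The 12 windows are not independent, since 4 are of *Ece1* and 2 of *Ace*. *Klf2* alone of the 8 genes held a MEF2 consensus, which 2.92% of all windows held. *Piezo1* and *Ace* held a TATA box (TATAAA), which 12.4% of windows held. The AP-1 site TGANTCA (6.75% of windows), the CRE TGACGTCA (1.55%), the GATA site AGATAA (9.99%) and the CArG box (1.47%) were found in none of the 12 windows. The KLF element and the GC box share G and C runs, so they are not independent features. These matches describe letters in 1 window and say nothing of whether a factor binds there.

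The libraries were of unequal depth, with 733342 to 19539761 counts each, and non-met 4, 5 and 6 held under 2000000. The sort markers matched the label. *Pecam1*, which encodes CD31, was at 972 and 1247 CPM, a read count normalised to library size, in the controls, 1131 to 2427 in non-met and 2297 to 3163 in met. *Emcn*, which encodes endomucin, was at 510 and 695 CPM in the controls, 351 to 1361 in non-met and 674 to 1326 in met. All 10 endothelial markers were above 3 reads in each group, with a summed level of 7765 to 11001 CPM in control, 8963 to 15092 in non-met and 12252 to 14733 in met. Markers listed for other cells differed between groups. Granulocyte markers summed to 77.8 and 388 CPM in control, 397 to 4824 in non-met and 35.5 to 204 in met, with *Ltf*, *Mpo*, *Elane* and *Csf3r* at 0 in met. Stromal and mural markers summed to 4100 and 10794 CPM in control, 1166 to 3764 in non-met and 574 to 3348 in met, led by *Cxcl12* (3224 and 8721 CPM in control). In control 2 this sum exceeded the endothelial one (10794 against 7765 CPM). Traces of *Krt8*, *Krt18* and *Krt19* over 5 CPM in sum separated 7 libraries from the 4 made of both controls and non-met 1 and 2. Non-met 2 lay just under this limit at 4.94 CPM, and met 3 was the lowest above it at 9.75. Non-met 3 and 6 held more (83.1 and 83.5 CPM) than any met library (9.75 to 68.0). All met libraries fell in the set of 7 and both controls in the other, so between met and control the library set and the group cannot be told apart except through the non-met libraries.

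**Figure D1:**
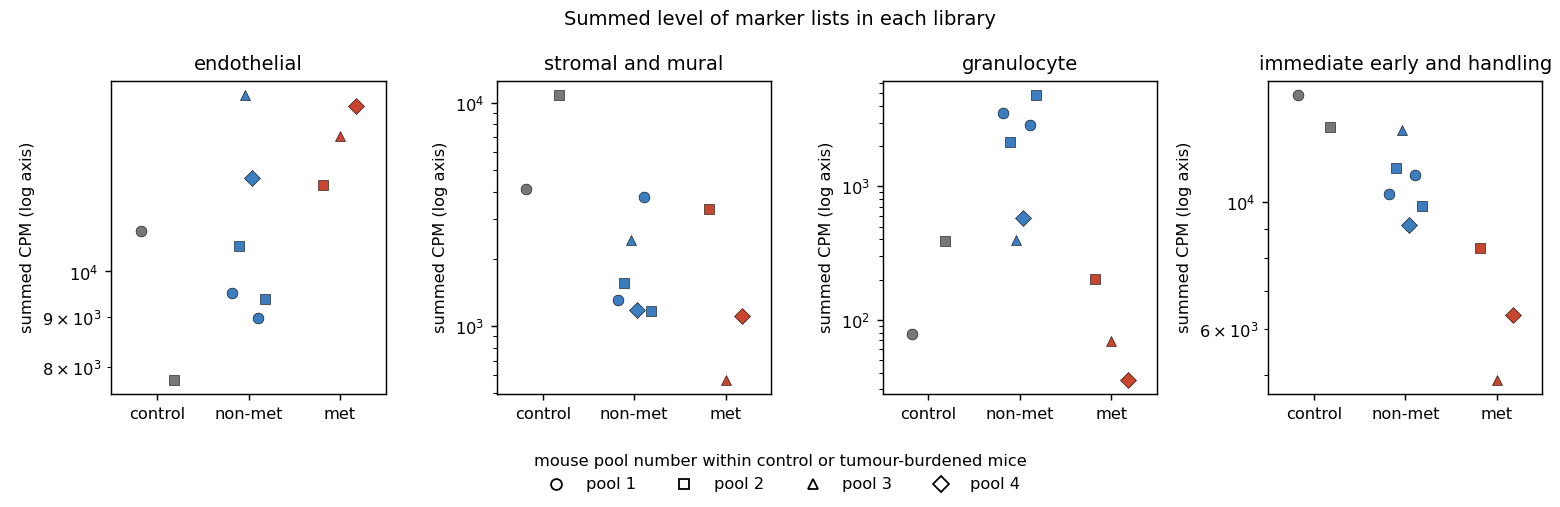
Summed CPM (log axis) of 4 marker lists in each of the 11 libraries, by group, with the marker shape giving the mouse pool. The 3 met libraries sit at 4900 to 8312 CPM for the immediate early list, below all 8 others (9121 to 15386), while the granulocyte list is highest in non-met.

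Levels are given as CPM scaled by TMM, and compared between genes only as CPM divided by the kilobases of counted exon (RPKM). Per length, *Klf4* led the 10 genes in control (302 ± 12.9 RPKM, SD, n = 2) and in non-met (348 ± 99.9, n = 6). In met *Ece1* led (276 ± 33.6, n = 3) and *Klf4* was the fourth at 160 ± 81.1. *Klf2* was second in each group, at 158 ± 17.2 RPKM in control, 284 ± 119 in non-met and 215 ± 107 in met. *Ednrb* was the eighth in control (26.3 ± 22.5) and in non-met (13.7 ± 15.6) and the fifth in met (83.7 ± 30.0). *Ace* and *Edn1* were last in all 3 groups, at 2.54 to 12.7 RPKM and 0 to 4.65 RPKM. Most neighbours in this order overlapped. In control the ranges were apart for *Klf4* over *Klf2*, *Ece1* over *S1pr1*, *Piezo1* over *Nos3* and *Ednrb* over *Ace*, in met for *Piezo1* over *Ace* alone, and in non-met for no neighbours.

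**Figure D2:**
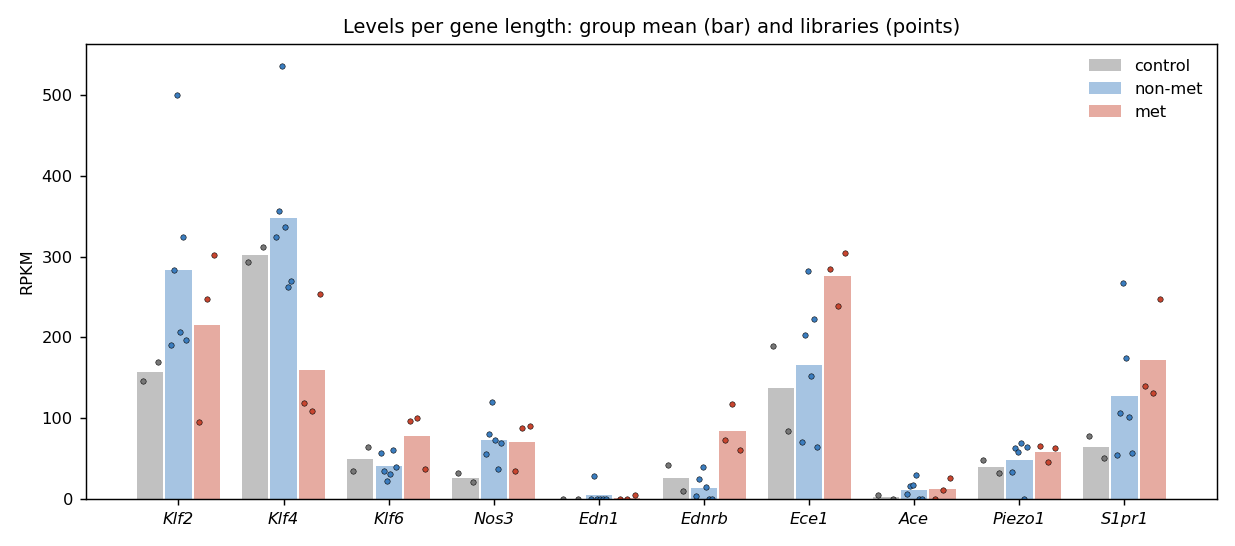
RPKM of the 10 genes, with the group mean as a bar and each library as a point, for control (n = 2), non-met (n = 6) and met (n = 3). *Klf4* bars are highest in control and non-met (302 and 348), and the *Ece1* bar is highest in met (276).

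Of the 3 Krüppel-like factors, *Klf4* was lower in every met library than in every other library. *Klf4*, a factor that laminar flow raises and that restrains inflammatory genes in ECs, was at 893 and 948 CPM in the controls. In non-met its lowest, median and highest levels were 797, 1008 and 1634 CPM, and in met it was at 360, 331 and 772 CPM. The met and non-met groups did not overlap, and neither did met and control. Mean log2 CPM differed by -1.19 between met and non-met (8.82 ± 0.67, n = 3, against 10.01 ± 0.37, n = 6; a 2.28-fold lower level), with an exact two-sided permutation P of 0.0119, the smallest that 84 splits allow. In the mice that gave both, *Klf4* was lower in met by 1.39, 2.30 and 0.41 on the log2 scale in pools 2, 3 and 4. Against control the difference was -1.03, with an exact permutation P of 0.2 where 0.1 is the smallest possible. Non-met and control levels overlapped, with a difference of 0.16 (exact permutation P = 0.607).

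Across the whole table, voomLmFit of edgeR, the weighted linear model named in the study's methods, gave *Klf4* a log2 fold change of -0.97 (SE 0.275) in met against non-met with a Benjamini-Hochberg adjusted P of 0.198, and did not call it. DESeq2 gave -1.26 with an adjusted P of 0.013, and voomLmFit with mouse pool as a fixed block gave -1.60 with an adjusted P of 0.0441, so both called it. With pool as a random block (adjusted P = 0.228), with libraries of 1 pool and group summed (0.443) and with the pool block in limma-trend (0.272) it was not called. The DESeq2 and fixed block fits called 3.21% and 0.286% of all genes tested. The direction was the same in all 28 alternatives, from -1.67 to -0.69. The 20 immediate early and handling genes, which include *Fos*, *Junb* and *Dusp1* and which ECs raise on flow changes and on tissue dissociation, summed to 13568 and 15386 CPM in control, 9121 to 13371 in non-met and 4900 to 8312 in met. Their sum was lower in met than in the non-met libraries of the same mice in all 3 pools. *Fos* ranged from 995 to 2317 CPM over the met libraries and from 2188 to 3238 over the non-met ones, and *Junb* from 669 to 952 and from 1412 to 2341. The sum is carried by abundant genes such as these. Others of the list had a higher median in met than in non-met, with *Hspa1a* at 150 against 28.4 CPM, *Hspa1b* at 389 against 152 and *Ier3* at 180 against 142. The granulocyte sum was also lower in every met library (35.5 to 204 CPM) than in every non-met one (397 to 4824), and in all 3 pools. Between met and control (77.8 and 388 CPM) it overlapped. The part of the immediate early and granulocyte lists in the *Klf4* difference was not tested.

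*Klf2*, the factor most closely tied to laminar flow and a driver of *Nos3*, overlapped between met and non-met. Its levels were 264 and 309 CPM in the controls and 346, 446 and 909 CPM (lowest, median and highest) in non-met, which lay above the controls. With CPM of total counts in place of TMM the same groups overlapped. The 9 monocyte and macrophage markers also summed higher in every non-met library (192 to 711 CPM) than in control (76.8 and 109), and to 47.6 to 287 CPM in met. They were led by *Cd14* and *Lyz2*, *Ccr2* was at 0 in all libraries, and 5 of the 9 were at 0 in control and 4 in met. Mitochondrial genes held 6.72% to 17.8% of counts in non-met, 5.40% and 6.20% in control and 4.33% to 9.56% in met. Granulocyte markers, too, summed higher in every non-met library (397 to 4824 CPM) than in control (77.8 and 388), and to 35.5 to 204 CPM in met. The part of any of these in the *Klf2* difference was not tested. In met its levels were 174, 449 and 548 CPM, which spanned the controls. The difference of mean log2 CPM was 0.76 between non-met and control (exact permutation P = 0.107), -0.47 between met and non-met (P = 0.393 by the same exact test) and 0.29 between met and control (exact P = 0.8). Within pools met was lower by 1.30 and 1.02 in pools 2 and 3 and higher by 0.54 in pool 4. The ratio of *Klf4* to *Klf2*, both in RPKM within 1 library and so free of the scaling between libraries, was 2.01 and 1.83 in control, 0.808 to 1.71 in non-met and 1.24, 0.439 and 0.840 in met. Both controls lay above all other libraries in this ratio, and met and non-met overlapped.

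*Klf6*, an injury-responsive member of the family found in many cell types, tended the other way from *Klf4* in values that overlapped. It was at 145 and 270 CPM in control and at 95.5, 156 and 257 CPM (lowest, median and highest) in non-met. In met it was at 409, 421 and 154 CPM, so that 2 met libraries lay above all others and met 3 among them. The difference between met and non-met was 0.87 on the log2 scale (exact permutation P = 0.107), and met was the higher in all 3 pools, by 1.39, 2.13 and 0.22.

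**Figure D3:**
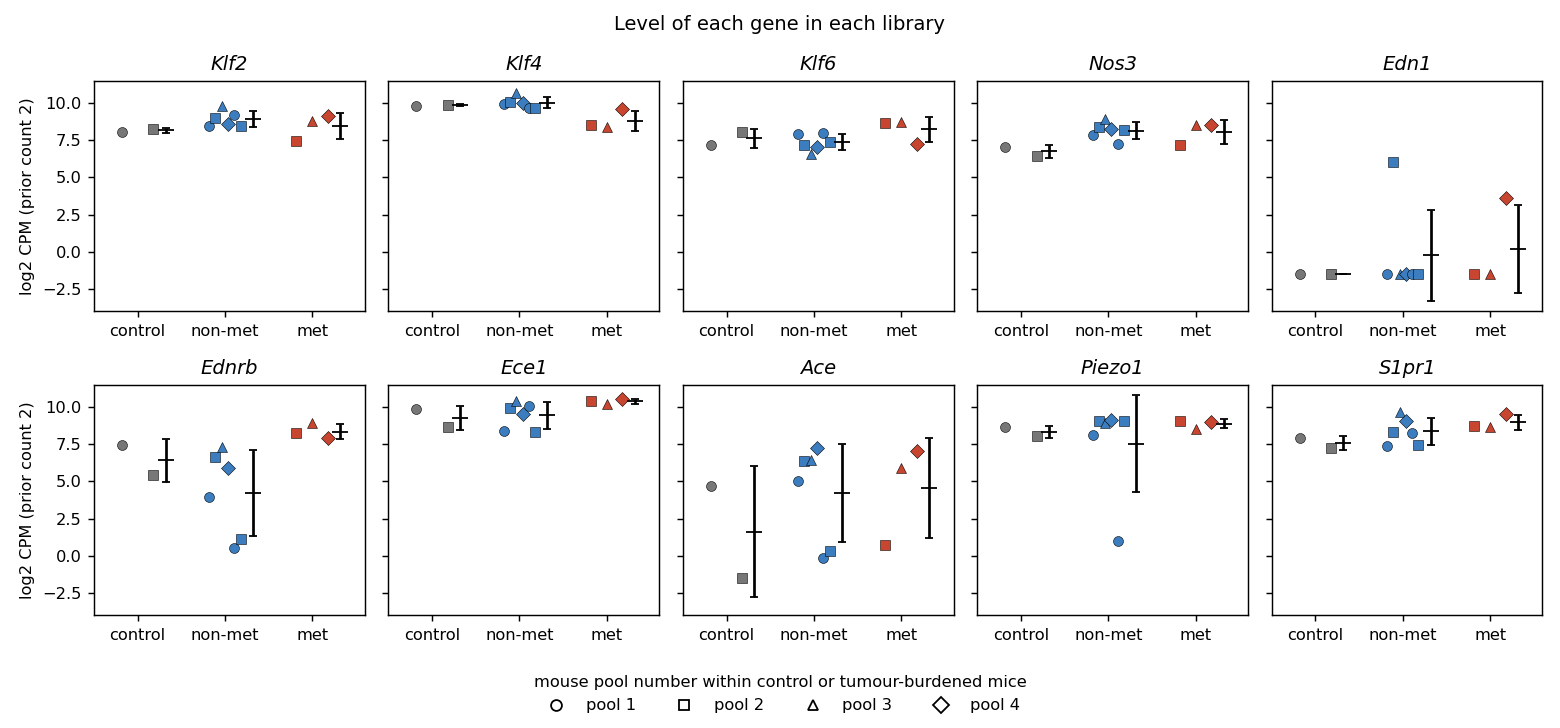
Log2 CPM (prior count 2) of each gene in each of the 11 libraries, with the mean and SD of the group beside the points and the marker shape giving the mouse pool; a library with no read sits at -1.49. The 3 *Klf4* points of met lie below all others, the 3 *Ednrb* points of met above all others, and *Ednrb*, *Ace*, *Piezo1* and *Edn1* each have libraries at or near 0.

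*Nos3*, which encodes endothelial nitric oxide synthase, was higher in every library of tumour-burdened mice than in the controls, in met and non-met alike. It was at 132 and 86.7 CPM in control, at 152, 293 and 495 CPM (lowest, median and highest) in non-met and at 141, 362 and 371 CPM in met. The lowest non-met and met libraries, non-met 5 and met 1, were close to control 1. Non-met exceeded control by 1.39 on the log2 scale (8.13 ± 0.57, n = 6, against 6.75 ± 0.43, n = 2; 2.62-fold), with an exact permutation P of 0.0357, the smallest that 28 splits allow. Met exceeded control by 1.32 (exact permutation P = 0.2), but with CPM of total counts these 2 groups overlapped. Met and non-met did not differ beyond their spread, with a difference of -0.07 (exact permutation P = 0.893). By voomLmFit the log2 fold change was 1.43 (SE 0.592, adjusted P = 0.225) for non-met against control and 1.59 (SE 0.601, adjusted P = 0.185) for met against control, and neither passed the threshold of 0.05. The summed level of the 6 sinusoidal markers was higher in both controls than in every other library, at 8874 and 6546 CPM in control, 3466 to 6049 in non-met and 3685 to 4848 in met. Not every marker followed the sum. *Stab2*, *Mrc1* and *Vcam1* were higher in both controls than in every other library, *Stab1* and *Flt4* overlapped between control and the others, and *Lyve1* was at 0 in every library. The stromal and mural sum was likewise higher in both controls (4100 and 10794 CPM) than in every other library (574 to 3764). The monocyte and granulocyte lists and the mitochondrial share are given beside *Klf2*. The part of any of these in the *Nos3* difference was not tested. An antisense gene, *Gm15587*, overlaps *Nos3*, and whether counting used strand is not stated, so reads of the 2 cannot be told apart. The same holds for *Edn1* and *Gm47118* and for *Ece1* and *Gm13012*.

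Of the endothelin genes, the receptor and the converting enzyme were highest in met, while the ligand was nearly absent. *Edn1*, which encodes the endothelin-1 precursor, had no read in 9 of the 11 libraries. It was at 65.5 CPM in non-met 2 (451 reads) and at 12.05 CPM in met 3 (105 reads). Non-met 6, from the same mice as non-met 2, had none. At 3 reads, the limit that a count of 0 allows, the 9 other libraries could hold up to 0.154 to 4.09 CPM of total counts, so no difference between groups could be read from this gene.

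*Ece1*, the protease that cuts the precursor to active endothelin-1, was at 910 and 408 CPM in control, at 311, 856 and 1359 CPM (lowest, median and highest) in non-met and at 1371, 1151 and 1467 CPM in met. All met libraries exceeded both controls, and non-met 3 lay within the met range. Met exceeded control by 1.12 on the log2 scale (10.37 ± 0.18, n = 3, against 9.25 ± 0.82, n = 2; 2.17-fold), with an exact permutation P of 0.1, the smallest that 10 splits allow. Met exceeded non-met by 0.93 (exact permutation P = 0.107), and was higher in pools 2 and 4, by 1.31 and 1.00, and lower by 0.24 in pool 3. With voomLmFit as the study's methods name it, with sample weights and no block, *Ece1* was the only one of the 10 genes called in any comparison. It rose in met against control by 0.75 on the log2 scale (SE 0.163, adjusted P = 0.0161). Control 1 carried 89.7% of the control weight in that fit and met 3 carried 81.7% of the met weight. The call was absent without control 1, met 1, met 3, non-met 5 or non-met 6 (adjusted P of 0.135, 0.0782, 0.344, 0.0702 and 0.0562 by voomLmFit), and the direction was the same in all 25 alternatives. By the edgeR quasi-likelihood test, DESeq2 and limma-trend it was absent too (adjusted P of 0.886, 0.875 and 0.977). Summing libraries of 1 pool and group also removed the call. With a term for the 2 library sets the voomLmFit fold change fell to 0.13 (adjusted P = 0.981). The endothelial sum was also higher in every met library (12252 to 14733 CPM) than in the controls (7765 and 11001). *Pecam1*, *Cdh5*, *Tie1* and *Esam* followed it. *Cldn5* was lower in met (762 to 1002 CPM) than in control (1064 and 1132), and the other markers overlapped. The sinusoidal and stromal sums were lower in every met library than in both controls. The part of these markers in the *Ece1* difference was not tested.

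*Ednrb* encodes the B-type endothelin receptor, which on ECs couples to nitric oxide release. Control libraries held 171 and 41.9 CPM. In non-met the libraries held 14.8, 97.3, 158, 57.9, 1.06 and 1.78 CPM (non-met 1 to 6), where the last 2 rested on 2 reads each. The met libraries held 297, 474 and 242 CPM, all above every other library. Mean log2 CPM was 8.34 ± 0.50 (n = 3) in met, 4.22 ± 2.89 (n = 6) in non-met and 6.41 ± 1.43 (n = 2) in control. The difference was 4.13 between met and non-met (exact permutation P = 0.0476) and 1.93 between met and control (exact permutation P = 0.1, the smallest possible). Leaving out either of the non-met libraries with 2 reads gave 3.38 and 3.50, and leaving out any 1 of the 9 libraries other than non-met 3 put the exact permutation P at 0.0536 to 0.107. In the mice that gave both, met exceeded non-met in all 3 pools, by 4.36, 1.58 and 2.06. The non-met libraries of 1 pool themselves lay far apart, non-met 6 at -5.52 from non-met 2 and non-met 5 at -3.42 from non-met 1, which is wider than the difference in pools 3 and 4. By voomLmFit the log2 fold change for met against non-met was 3.86 (SE 1.22, adjusted P = 0.327). It was positive in all 28 alternatives, from 2.30 to 4.52, and passed the adjusted threshold in none. The arterial markers summed to 196 and 618 CPM in control, 380 to 944 in non-met and 478 to 930 in met, with 7 of 8 detected in control (*Gja5* at 0) and all 8 in the others. Megakaryocyte markers summed to 0 and 31.3 CPM in control, 0 to 59.5 in non-met and 83.3 to 100 in met, so that met lay above all other libraries in this list as well. Of these 6 markers, 3 were over 3 reads in some met library (*Pf4*, *Itga2b* and *Itgb3*), with *Ppbp* and *Gp9* at 0. The methods state that CD45 and Ter-119 antibodies removed haematopoietic cells in the sort. The stromal and mural sum, given above, overlapped between met and non-met. The part of these markers in the *Ednrb* difference was not tested. In pools of sorted cells, more cells with a transcript and more of it per cell cannot be told apart.

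**Figure D4:**
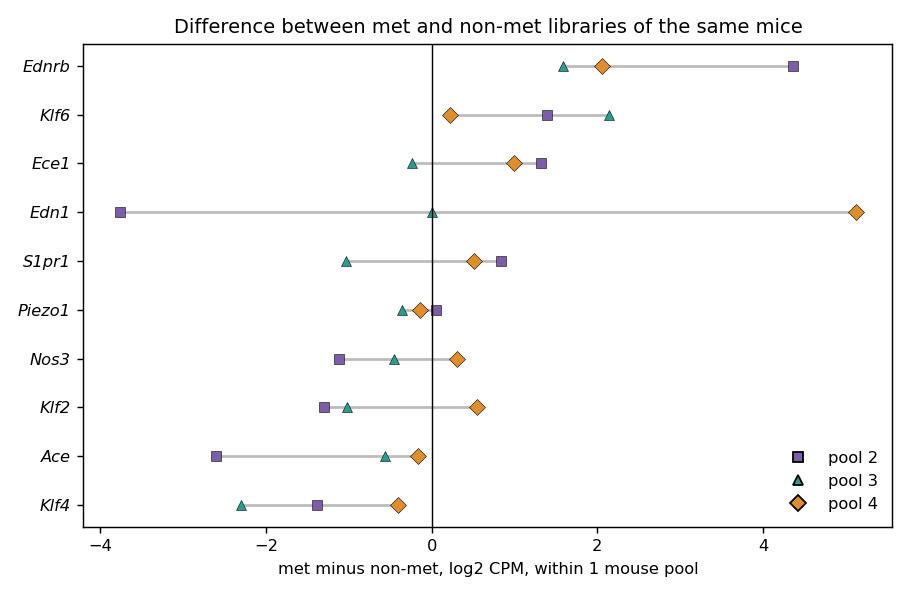
Met minus non-met difference in log2 CPM within each of the 3 mouse pools that gave both (non-met libraries of a pool averaged), with the genes ordered by their mean difference. *Ednrb* and *Klf6* lie right of 0 in 3 of 3 pools and *Klf4* and *Ace* left of 0 in 3 of 3.

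*Ace* encodes the enzyme that makes angiotensin II and degrades bradykinin. Control libraries held 25.9 and 0 CPM. Non-met libraries held 31.9, 83.5, 87.4, 150, 0.53 and 0.89 CPM, of which the last 2 were 1 read each, and met libraries held 1.32 (3 reads), 58.7 and 134 CPM. In all 3 pools met was the lower, by 2.61, 0.57 and 0.17 on the log2 scale. Over all libraries met was 0.36 above non-met (exact permutation P = 0.774). The non-met libraries with 1 read came from pools 1 and 2, and pool 1 gave no met library. Control 2, with no read, carried 82.0% of the control weight in voomLmFit, where met against control was 7.33 (SE 2.84, adjusted P = 0.201). Without control 2 this value was 0.59. The antisense gene *Gm11651* overlaps most of *Ace*.

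*Piezo1*, the stretch-activated cation channel through which ECs sense flow, was at 394 and 265 CPM in control and at 541, 371 and 516 CPM in met. In 5 of the 6 non-met libraries it lay between 276 and 568.1 CPM, and in non-met 5 it was at 1.59 CPM (3 reads). The groups overlapped, and within pools met and non-met differed by 0.05, -0.36 and -0.14. The difference of 1.35 between met and non-met (exact permutation P = 0.655) rests on non-met 5, and the difference of non-met from control, -0.81, became 0.51 without it. *Ctu2* and *Gm20388* overlap *Piezo1* on the opposite strand.

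*S1pr1*, the receptor through which circulating sphingosine 1-phosphate tightens endothelial junctions and which also responds to flow, was at 237 and 154 CPM in control and at 422, 397 and 750 CPM in met, all above control. In non-met it was at 166, 316 and 811 CPM (lowest, median and highest), which overlapped both groups. Met exceeded control by 1.39 on the log2 scale (8.97 ± 0.51, n = 3, against 7.58 ± 0.44, n = 2; 2.62-fold), with an exact permutation P of 0.1, the smallest possible. By voomLmFit the value was 1.52 (SE 0.450, adjusted P = 0.0903), which passed the threshold without sample weights (1.45, adjusted P = 0.0085) and without control 2. It did not pass by the edgeR quasi-likelihood test (adjusted P = 0.886), by DESeq2 (0.644) or by limma-trend. Met and non-met differed by 0.62 (exact permutation P = 0.345), and by 0.84, -1.03 and 0.50 within pools 2, 3 and 4. As given beside *Ece1*, the endothelial sum was higher, and the sinusoidal and stromal sums lower, in every met library than in both controls. The part of these lists in the *S1pr1* difference was not tested.

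Taking the 10 genes as a list, voomLmFit called none in met against non-met, where it called 0.427% of the 11948 genes tested. At an unadjusted P under 0.05 by voomLmFit there were 4, against 7.24% of all genes, and 2 by the edgeR quasi-likelihood test, against 8.38% of all genes. In met against control it called 1, *Ece1*, where it called 1.2% of all genes, and 6 had an unadjusted P under 0.05 against 14.1% of all genes. In non-met against control it called none, where it called 0.636% of all genes, and 4 had an unadjusted P under 0.05 against 17.0%. The quasi-likelihood test called none of the 10 in the 3 comparisons, where it called 0.134%, 0.0837% and 0.117% of all genes, and none of the 10 had an unadjusted P under 0.05 by it in either comparison with control, against 4.61% of all genes for met and 4.29% for non-met. Limma-trend also called none (all genes 0.0167%, 0.0753% and 0.067%). DESeq2 called *Klf4* in met against non-met and none in the comparisons with control (all genes 2.41% and 2.4%). The 30 exact permutation tests had a smallest adjusted P of 0.357. The median log2 fold change of the 10 by voomLmFit was 0.62, 1.14 and 0.43 in met against non-met, met against control and non-met against control, and that of all genes 0.08, -0.09 and -0.33.

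By separation of libraries, 1 of the 10 genes (*Ednrb*) had all met libraries above all non-met ones, as had 1.54% of all genes, and 1 (*Klf4*) had all below, as had 0.444%. Against control 4 had all met libraries above (*Nos3*, *Ednrb*, *Ece1* and *S1pr1*), as had 8.43% of all genes, and 1 (*Klf4*) had all below, as had 12.3%. *Klf2* and *Nos3* had all non-met libraries above control, as had 1.26% of all genes. With CPM of total counts *Ece1* also had all met libraries above all non-met ones (1109 to 1458 against 281 to 1087), while *Nos3* in met against control and *Klf2* in non-met against control overlapped.

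**Figure D5:**
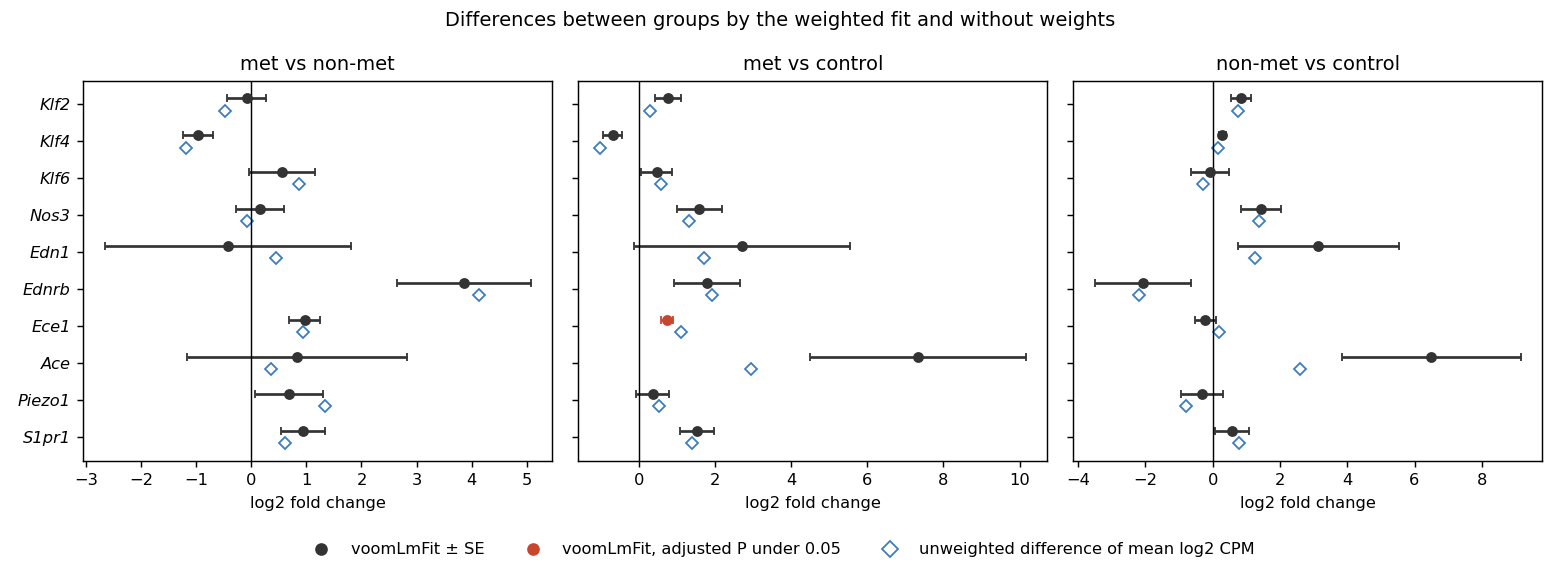
Log2 fold change of each gene in the 3 comparisons by voomLmFit (circles, bars are SE; red where the adjusted P is under 0.05) and as the unweighted difference of mean log2 CPM (open diamonds). *Ece1* in met against control (0.75) is the one red point, and the weighted and unweighted values lie far apart for *Ace* against control (7.33 and 2.95 for met).

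The wider pathways were read from lists of 114 further genes, of which 90 were tested. VoomLmFit called 1 of them in met against non-met, 6 in met against control (2 higher and 4 lower) and 2 in non-met against control (1 higher and 1 lower), which is 1.11%, 6.67% and 2.22% of those tested, where it called 0.427%, 1.2% and 0.636% of all genes. None of the 20 tested genes of shear and KLF regulation, the 19 of nitric oxide or the 3 of endothelin passed in any comparison by voomLmFit. DESeq2 called 1 of them, *Ddah1*, which encodes an enzyme that degrades an inhibitor of nitric oxide synthase, in met against control (adjusted P = 2.0e-05) and in non-met against control (adjusted P = 2.2e-06), at 0.11 to 40.0 CPM in met, 0 to 52.8 in non-met and 0 in both controls. *Mef2c*, a MEF2 factor that acts upstream of *Klf2* and *Klf4*, was at 126 to 520 CPM in met, 51.7 and 101 in control and 0 to 145 in non-met, with an adjusted P of 0.582 for met against non-met by voomLmFit. *Thbd*, the anticoagulant receptor that KLF2 raises, was at 229 to 1223 CPM in met, 663 to 1741 in non-met and 966 and 1336 in control. *Cav1*, the caveolar protein that holds nitric oxide synthase inactive, overlapped between groups at 312 to 970, 125 to 944 and 257 to 370 CPM in the same order. *Ednra*, the A-type endothelin receptor typical of mural cells, was at 0 to 214 CPM in met, 0 to 25.1 in non-met and 14.0 and 15.6 in control. Its levels overlapped between groups. *Ddah1* and these 4 genes were named after their values were seen.

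Of the 13 tested genes of mechanosensing, 4 passed in met against control by voomLmFit, where 1.2% of all genes did. *Cdh5*, the junctional cadherin that relays shear, rose in met against non-met by 0.56 on the log2 scale (SE 0.112, adjusted P = 0.0157 by voomLmFit), at 1871 to 2099 CPM against 1026 to 1863. Against control (1001 and 1728 CPM) it rose by 0.12 in the weighted fit (adjusted P = 0.0042) and by 0.61 unweighted. The quasi-likelihood test, limma-trend and DESeq2 called *Cdh5* in neither comparison (adjusted P of 0.741, 0.911 and 0.962 for met against non-met). *Cdh5* is also in the endothelial list, whose sum was higher in every met library than in both controls. *Itgb1*, the integrin chain through which ECs hold their matrix, was at 1886 to 2190 CPM in met, 912 to 2164 in non-met and 791 and 896 in control, and rose against control by 1.10 in met (adjusted P = 4.1e-15 by voomLmFit) and by 0.68 in non-met (adjusted P = 0.00163). The quasi-likelihood test, limma-trend and DESeq2 did not call *Itgb1*. Their adjusted P were 0.886, 0.285 and 0.204 for met against control, and 0.944, 0.872 and 0.510 for non-met against control. *Kdr* and *Plxnd1*, both part of endothelial shear sensing, and *Aplnr*, the apelin receptor, were called lower in met than in control by voomLmFit, by 0.48, 0.56 and 0.93. Their libraries overlapped, and their unweighted differences were 0.08, -0.02 and 0.03, so these 3 calls rest on the weights.

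*S1pr3*, a sphingosine 1-phosphate receptor common on mural cells, had no read in the 3 met libraries, against 28.9 and 134 CPM in control and 0 to 84.3 in non-met (adjusted P = 0.0373 by voomLmFit and 0.00151 by DESeq2, met against control). *Agt*, the angiotensin precursor, in non-met against control fell by 6.22 on the log2 scale (adjusted P = 0.0246 by voomLmFit), at 0 to 37.0 CPM against 57.5 and 136. The stromal and mural sum was also higher in control than in all other libraries, at 4100 and 10794 CPM against 574 to 3764, led by *Cxcl12*. *Lepr* followed the sum, at 246 and 979 CPM in control and at most 221 in non-met and 148 in met. *Pdgfrb* (at most 116 CPM in met) and *Col1a2* (at most 184) were lower in every met library than in both controls. Both overlapped between non-met and control. Other markers of that list did not follow the sum. The highest level in met exceeded that in control for *Acta2* (320 against 5.4 CPM), *Tagln* (112 against 0) and *Cspg4* (174 against 33.1). The met median was below the control one for *Acta2* (1.33 against 2.78 CPM) and *Cspg4* (0 in met). For *Tagln* it was above (29.2 against 0). *Rgs5*, *Col1a1* and *Col3a1* overlapped. The part of this list in these 2 results was not tested. The quasi-likelihood test and limma-trend called none of the listed genes in any comparison. DESeq2 called *S1pr3* in met against non-met too (adjusted P = 4.0e-04), where the libraries overlapped at 0. Besides *Ddah1* it called *Ptgs2*, the inducible cyclooxygenase of prostanoid synthesis, and *P2ry2*, an ATP receptor of ECs, both named after their values were seen. *Ptgs2* was at 0 to 119 CPM in met, 0.44 to 113 in non-met and 0 to 0.049 in control (adjusted P by DESeq2 of 0.0242 for met and 0.0119 for non-met against control). *P2ry2* was at 17.8 to 52.9 CPM in met, 0 to 175 in non-met and 0 in both controls (adjusted P by DESeq2 of 0.0056 and 0.00113).

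The genes whose log2 CPM ran most like each of the 10 over the 11 libraries, among 9522 genes with a mean of at least 10 CPM, are given as a description. The libraries share pools, depth and dropout, and the highest of so many correlations is high by selection. *Klf2* ran most like *Rpl13a* (Pearson r = 0.97) and *Ehd3* (0.90), and *Klf4* most like *Cactin* (0.94) and *Mylip* (0.92). *Klf6* ran most like *Miga1* (0.82) and *Psmd9* (0.81), *Nos3* like *Csf2rb* (0.96) and *Slc44a2* (0.95), and *S1pr1* like *Tspan15* (0.99) and *Gpr146* (0.93). *Ednrb* ran most like *Ankib1* and *Arid4b* (both 0.95), *Ece1* like *Gnptg* (0.93) and *Sap18* (0.91), and *Ace* like *Emc8* (0.98) and *Ubxn7* (0.97). For *Piezo1* (*Saraf* and *Mvp*, both 0.99) and *Edn1* (*Slc38a6*, 0.86, and *Apoo-ps*, 0.82) the values rest on 1 and 2 libraries that stand apart.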

How the data were processed

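Libraries were made with a SMART-Seq v4 low-input kit. Per the labels and methods the authors aligned reads to mm10 (Rsubread) and counted them with featureCounts, and the deposited values are raw counts per Entrez gene; strand use is not stated. Each of the 11 per-library tables repeated its column of the series table. Symbols matched RefSeq (GRCm38.p6) for 25275 of 27179 rows and GENCODE for 18. Unnamed rows (1886), ribosomal and other structural RNA genes (36, with ribosomal protein genes kept) and predicted genes (1794) were left out, which held 1.94% to 15.7% of a library's counts. Members, lists and tests were chosen with earlier results of these data known.

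After filterByExpr (minimum count 10, minimum total 15; 11948 genes, all 10 members) and TMM scaling, voomLmFit with sample weights was fitted to all 11 libraries (R 4.3.3, edgeR 4.0.16, limma 3.58.1), as the methods name it, with Benjamini-Hochberg adjustment and a threshold of 0.05. On simulated data with changes set in the met libraries, the fit was scored for met against non-met alone. The comparisons with control were not scored. Log2 CPM used a prior count of 2, and single genes were compared by exact two-sided permutation over libraries (84, 10 and 28 splits), adjusted over 30 tests. Alternatives were the quasi-likelihood test, DESeq2 1.42.0, limma-trend, other weights, scalings, filters and pool blocks, and each library left out. Library-set terms, fits without libraries under 2000000 counts and limma-trend with a pool block were added after seeing the data. Pools pair libraries by shared mice, per the labels. Spearman correlations of same-pool deviations from the group means were -0.02 to 0.02. The genes named were the members, the sort markers, every listed pathway gene past the threshold (at most 6 a comparison) and the 2 most similar genes per member. Others are marked or stand for their marker list.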

Additional observations from a re-analysis of the deposited data

Results flagged for a closer look

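Of the 10 groups of 6 non-met libraries examined, 1 for each gene, 2 held a library far from the rest by Dixon's criterion (critical value 0.625), which chance alone meets in about 1 group in 20 where values are not tied. *Edn1* in non-met 2 was at 6.04 log2 CPM (65.5 CPM, 451 reads), where the other 5 libraries had no read and sat at -1.49. With 5 values tied at 0 reads any library with reads would meet the criterion, so that rate does not apply to *Edn1*. *Piezo1* in non-met 5 was at 0.96 log2 CPM (1.59 CPM, 3 reads), where the next lowest library was at 8.11. The other library of the same mice, non-met 1, had 1529 *Piezo1* reads.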

How the results depend on the processing

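Counts of the 10 genes called. In met against non-met DESeq2 and the mouse pool as a fixed replicate block each gave 1 (*Klf4*), leaving out 1 library gave 0 to 1 (*Ece1* without either control), where 0.137% to 0.619% of all genes were called, and the others gave 0. The block was fitted to the burdened libraries and tested 9 of the 10, since pools pair libraries of the same mice. In met against control the quasi-likelihood test, DESeq2, limma-trend, libraries of 1 pool and group summed, a term for the 2 library sets and the fit without libraries under 2000000 counts gave 0. No sample weights gave 2 (*Ece1* and *S1pr1*), where it called 2.29% of all genes, and leaving out 1 library gave 0 to 2, where it called 0.309% to 2.05% of all genes. Non-met against control gave 0 in every alternative run.

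Fitted log2 fold changes that changed sign, in met against non-met: *Nos3* (0.16) was -0.035 by the quasi-likelihood test, -0.18 by DESeq2, -0.0725 by limma-trend, -0.0723 within library set 2, -0.44 with the fixed replicate block, -0.49 with that block in limma-trend, and -0.26 to 0.33 leaving out 1 library. *Ace* (0.83) was -0.031 by DESeq2, -0.43 and -1.24 with the same blocks, -0.44 with pools summed, -0.54 without libraries under 2000000 counts and -1.92 to 2.13 leaving out 1 library. *Piezo1* (0.68) was -0.15 and -0.12, and *S1pr1* (0.94) -0.37, with the replicate block. *Edn1* (-0.43) was 0.45 by limma-trend, 0.070 with the library-set term and -0.72 to 0.27 leaving out 1 library, and *Klf2* (-0.08) -0.65 to 0.093.

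In met against control *Klf6* (0.47) was -0.17 to 1.31 leaving out 1 library. In non-met against control *Ece1* (-0.22) was 0.28 by the quasi-likelihood test, 0.36 by DESeq2, 0.18 by limma-trend, 0.15 with pools summed, 0.087 without libraries under 2000000 counts and -0.61 to 0.81 leaving out 1 library. *Piezo1* (-0.32) was 0.26, 0.33, 0.21 and 0.28 in the same order without limma-trend, 0.10 with the library-set term and -0.82 to 0.26 leaving out 1 library. *Klf6* (-0.09) was 0.12 with no sample weights and with the library-set term, 0.033 by RLE scaling and -0.75 to 0.15 leaving out 1 library, and *Ace* (6.50) -0.39 to 7.85.

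Unweighted differences that changed sign on leaving out 1 library were, in met against non-met, *Ace* (-0.89 to 2.27), *Edn1* (-1.25 to 1.71), *Klf2* (-0.79 to 0.036) and *Nos3* (-0.31 to 0.38), in met against control *Ace* (-0.15 to 6.05) and *Klf2* (-0.033 to 0.80), and in non-met against control *Ace* (-0.51 to 5.69), *Ece1* (-0.39 to 0.76), *Klf6* (-0.73 to 0.17) and *Piezo1* (-1.13 to 0.51). With library size scaling *Klf4* and *Ece1* were at -0.042 and -0.016 in non-met against control. The cause was not tested. None of these was past a threshold.

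Over all genes voomLmFit called 51, 143 and 76 (in the order met against non-met, met against control, non-met against control). The quasi-likelihood test called 16, 10 and 14, DESeq2 324, 243 and 242, limma-trend 2, 9 and 8, no sample weights 63, 274 and 140, no filter 79, 429 and 184, pools summed 24, 55 and 33, the library-set term 9, 4 and 20, and the fit without libraries under 2000000 counts 25, 71 and 33. Library size scaling moved the median of all genes from -0.09 to -0.23 in met against control and from -0.33 to -0.54 in non-met against control, with 46.3% and 13.8% of calls higher (57.3% and 28.9% with TMM). RLE scaling moved it from 0.08 to -0.09 in met against non-met, with 53.3% of calls higher (66.7%). Calls in met against non-met were higher for 6.48% by DESeq2, 18.8% by the quasi-likelihood test and 11.1% with the fixed block. In non-met against control they were higher for 98.3% by DESeq2 and 78.6% by the quasi-likelihood test, against 28.9% by voomLmFit. Values of 1 to 3 reads for *Ednrb*, *Ace* and *Piezo1* were all in non-met 5, non-met 6 or met 1, of 1862141, 1146421 and 2547520 counts. These are the next lowest in depth after non-met 4. Non-met 4, the library of lowest depth (733342 counts), was at 57.9, 150 and 568.1 CPM for these genes. *Ace* also had no read in control 2 (5029771 counts). The cause was not tested for these low values.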
